A study of Mus musculus with 22 samples.

Results

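Loss of Rlf, a zinc finger protein, was examined here at 7 genes for plasma proteins made by the fetal liver: Alb, Afp, Afm, Gc, Ttr, Ahsg and Trf. The genes were chosen by name, as the albumin family and the secreted proteins that accompany it in fetal plasma. Earlier results of these data were known when they were chosen. They are 7 of the 37991 genes in the count tables. The study sequenced polyadenylated RNA from E14.5 livers, with 3 wild-type (Rlf+/+) and 3 homozygous mutant (Rlf MommeD28/MommeD28) livers, and bisulphite-converted genomic DNA from 2 samples of each genotype at each of 3 stages, taken as whole embryos at E10.5 and as livers at E14.5 and E18.5. Mice of both genotypes were of the FVB/NJ Line3 strain, were homozygous for a multi-copy GFP transgene driven by the human alpha-globin promoter and HS-40 enhancer, and came from matings of heterozygotes. MommeD28 is an ENU-induced null allele of Rlf that has been kept by backcrossing to unmutagenised Line3 mice. The RNA libraries labelled replicates 1 and 2 were from males and replicate 3 from a female in both genotypes. For bisulphite sequencing, every E10.5 embryo was male, every E18.5 liver was female, and each E14.5 group held 1 male and 1 female liver, so the stages differ in their balance of sexes, and stage and tissue cannot be told apart between E10.5 and E14.5. From E14.5 to E18.5, the paper states, the main cells of the liver change from erythroblasts to hepatoblasts. Stage, sex and cell make-up therefore cannot be told apart between these livers. The E14.5 livers sequenced for methylation came from littermates.

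Albumin and its relatives are carrier proteins that hepatocytes secrete into the blood. Alb, Afp and Afm lie next to each other in the same orientation and share an ancestor with the more distant Gc, the vitamin D-binding protein. Alpha-fetoprotein (Afp) is abundant in fetal plasma and is switched off after birth, while albumin remains the main plasma protein for life. Afamin (Afm) binds vitamin E, transthyretin (Ttr) carries thyroxine and the retinol-binding protein, fetuin-A (Ahsg) keeps calcium salts in solution, and transferrin (Trf) carries iron. The promoters of these genes are known as poor in CpG dinucleotides, the sites at which mammalian DNA is methylated, and they depend on hepatocyte factors such as Hnf4a and the Foxa and Cebp proteins.

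On mm9, Alb spanned positions 90889915 to 90905629 of chromosome 5, Afp 90919740 to 90937933 and Afm 90947958 to 90982569, all on the plus strand. Gc lay on the minus strand of the same chromosome, from 89846549 to 89886790. Trf occupied positions 103106331 to 103132774 of chromosome 9 on the minus strand, and Ahsg positions 22892115 to 22899511 of chromosome 16 on the plus strand. The 300 bases before the annotated start of 6 of the genes are shown for how few CpGs they hold and where these lie. The windows are chr5:90889615-90889914, chr5:90919440-90919739 and chr5:90947658-90947957 on the plus strand, chr5:89886791-89887090 on the minus strand, chr16:22891815-22892114 on the plus strand and chr9:103132775-103133074 on the minus strand. They were read from the mm9 reference, without the FVB/NJ substitutions, and are written along the strand of the gene. Capitals mark each CpG.
Alb: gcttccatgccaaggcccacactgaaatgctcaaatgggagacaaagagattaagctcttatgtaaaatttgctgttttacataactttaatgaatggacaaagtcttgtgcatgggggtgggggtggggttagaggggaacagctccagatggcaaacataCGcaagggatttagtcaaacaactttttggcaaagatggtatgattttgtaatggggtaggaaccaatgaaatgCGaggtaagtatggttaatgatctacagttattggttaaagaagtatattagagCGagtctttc
Afp: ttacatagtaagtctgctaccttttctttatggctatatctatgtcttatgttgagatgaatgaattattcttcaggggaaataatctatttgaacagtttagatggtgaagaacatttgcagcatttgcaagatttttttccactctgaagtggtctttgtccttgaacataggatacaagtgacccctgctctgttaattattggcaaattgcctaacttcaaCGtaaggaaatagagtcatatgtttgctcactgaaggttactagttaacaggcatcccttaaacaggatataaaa
Afm: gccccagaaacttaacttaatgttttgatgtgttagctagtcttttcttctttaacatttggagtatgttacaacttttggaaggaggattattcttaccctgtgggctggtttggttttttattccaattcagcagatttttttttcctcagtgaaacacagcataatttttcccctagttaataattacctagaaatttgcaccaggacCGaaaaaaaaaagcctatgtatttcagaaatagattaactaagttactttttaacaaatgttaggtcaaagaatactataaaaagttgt
Gc: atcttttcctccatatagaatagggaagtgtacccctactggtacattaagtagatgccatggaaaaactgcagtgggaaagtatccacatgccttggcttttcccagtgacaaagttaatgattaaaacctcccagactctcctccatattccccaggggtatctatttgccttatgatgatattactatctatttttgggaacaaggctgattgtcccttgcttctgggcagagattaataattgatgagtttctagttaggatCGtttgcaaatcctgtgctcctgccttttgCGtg
Ahsg: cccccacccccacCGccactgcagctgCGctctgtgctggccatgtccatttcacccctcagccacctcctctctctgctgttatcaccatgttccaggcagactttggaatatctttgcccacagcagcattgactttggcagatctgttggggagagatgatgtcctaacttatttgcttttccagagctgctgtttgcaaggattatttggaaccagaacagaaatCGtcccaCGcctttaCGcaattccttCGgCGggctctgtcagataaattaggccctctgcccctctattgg
Trf: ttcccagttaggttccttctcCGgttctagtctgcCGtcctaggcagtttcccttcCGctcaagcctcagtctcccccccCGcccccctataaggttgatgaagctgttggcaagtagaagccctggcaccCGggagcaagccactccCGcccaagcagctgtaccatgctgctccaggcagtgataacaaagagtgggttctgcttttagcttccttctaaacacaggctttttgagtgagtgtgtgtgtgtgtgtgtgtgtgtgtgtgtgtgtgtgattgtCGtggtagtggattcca

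The 300 bases held 3 CpGs for Alb, 1 each for Afp and Afm, 2 for Gc, and 7 each for Ahsg and Trf, against a median of 10 over the promoters of all 21418 autosomal protein-coding genes. Of these CpGs, 2 in Alb, 1 in Afp, none in Afm, 2 in Gc, all 7 in Ahsg and 1 in Trf had enough reads in every library to enter the methylation values below.

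In wild-type E14.5 liver, Afp and Alb ranked 2 and 3 of all genes in abundance per length of exon, at 14288 ± 1267 and 13045 ± 1412 RPKM (TMM-scaled CPM per kilobase of exon, mean ± SD, n = 3). Ahsg followed at 1225 ± 164 RPKM (rank 24) and Ttr at 726 ± 124 RPKM (rank 38). Trf stood at 229 ± 15.9 RPKM (rank 187), Gc at 219 ± 31.4 RPKM (rank 196) and Afm at 29.7 ± 3.15 RPKM (rank 2422). The order of Ahsg above Ttr, and of both above Gc and Afm, held without overlap between wild-type livers, whereas the ranges of Afp and Alb overlapped. The place of Trf in this order is uncertain, since 63.7% of its exon bases are shared with a second gene model on the same strand and reads there can be lost. Within each of the 6 livers, however, Afp exceeded Alb. The 6 RNA libraries held 12928313 to 14621004 counts, and the 7 genes together took 5.58% to 6.43% of them in wild-type livers and 6.68% to 7.77% in mutant livers.

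Between the genotypes 1 of the 7 genes, Trf, passed the test for a difference in RNA. Trf rose 1.37-fold in mutant livers. Alb, Gc and Ahsg had fold changes between 1.21 and 1.34 that did not pass, and Afp, Afm and Ttr had smaller ones. With replicate number as a block, for which the labels give no pairing, Gc passed as well. All 7 log2 fold changes were above 0, with a median of 0.27, against a median of -0.0017 over all 14183 genes tested. Because the genes were chosen with earlier results of these data known, this is a description. The test was edgeR's quasi-likelihood test on raw counts with Benjamini-Hochberg adjustment over all genes tested, and it called 197 genes, 1.39% (0.698% higher in mutants), at an adjusted p under 0.05. Wild-type liver 2 was the lowest of the 6 livers for all 7 genes. Without it the log2 fold changes were 0.40 for Trf (adjusted p = 0.0496, edgeR), 0.31 for Gc, 0.25 for Ahsg, 0.18 for Alb, 0.11 for Afp, 0.06 for Afm and -0.08 for Ttr. In bulk tissue, fewer cells of a type and less RNA per cell cannot be told apart.

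Values of single genes are given in CPM, a gene's count relative to its library total after scaling by TMM, edgeR's trimmed mean of M-values. Trf had 769, 701 and 805 CPM in wild-type livers 1, 2 and 3, and 1031, 1171 and 925 in mutant livers 1, 2 and 3. Every mutant liver was above every wild-type liver. The log2 fold change was 0.46 (SE 0.088, adjusted p = 0.0289, edgeR). With replicate number as a block the adjusted p was 0.00695. The call was lost without wild-type liver 1 (0.0728), wild-type liver 3 (0.0538), mutant liver 1 (0.121) or mutant liver 2 (0.0761). Of the 3310 exon bases of Trf, 2108 (63.7%) also belong on the same strand to a second gene model of the same name, ENSMUSG00000090639, which had no counts in any library. Reads that fall on both models can be lost in counting, so the level of Trf is uncertain.

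Gc had 411, 308 and 376 CPM in wild-type livers and 489, 517 and 458 in mutants. The groups did not overlap. The log2 fold change was 0.42 (SE 0.096), and the adjusted p of 0.0553 fell just short of the threshold in edgeR's test. With replicate number as a block Gc was called, at an adjusted p of 0.00989, and so was it without wild-type liver 1 (0.0327).

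Alb stood at 28380, 23322 and 28254 CPM in wild-type livers and at 30685, 34945 and 30867 in mutant livers. Here too the groups did not overlap, and wild-type liver 2 was the lowest. The log2 fold change was 0.27 (SE 0.083, adjusted p = 0.151, edgeR), which did not pass the test. Groups that do not overlap were seen for 20.3% of all genes tested, and for 3 of the 7 genes here.

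For Ahsg, wild-type livers had 2046, 1561 and 1808 CPM and mutants 2316, 2544 and 2043. The lowest mutant and the highest wild-type liver were nearly level. The log2 fold change of 0.35 (SE 0.10) had an adjusted p of 0.127 in edgeR's test, and 0.0519 with the replicate block.

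Afp measured 29840, 27143 and 32430 CPM in wild-type livers and 31638, 37863 and 31727 in mutants, with a log2 fold change of 0.18 (SE 0.085, adjusted p = 0.354, edgeR). Afm, the least abundant of the family, was at 98.2, 79.7 and 93.2 in wild-type livers and 101, 103 and 95.6 in mutants, with a log2 fold change of 0.15 (adjusted p = 0.392, edgeR). Groups overlapped for both genes. Ttr showed the smallest difference, with 1046, 746 and 862 CPM in wild-type livers and 878, 951 and 873 in mutants. Its log2 fold change was 0.03 (SE 0.10, adjusted p = 0.939, edgeR), and it also changed sign without mutant liver 2 (-0.01). Of the exon bases of Ttr, 11 are shared with the antisense gene Gm16090, from which unstranded reads cannot be told apart.

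**Figure D1:**
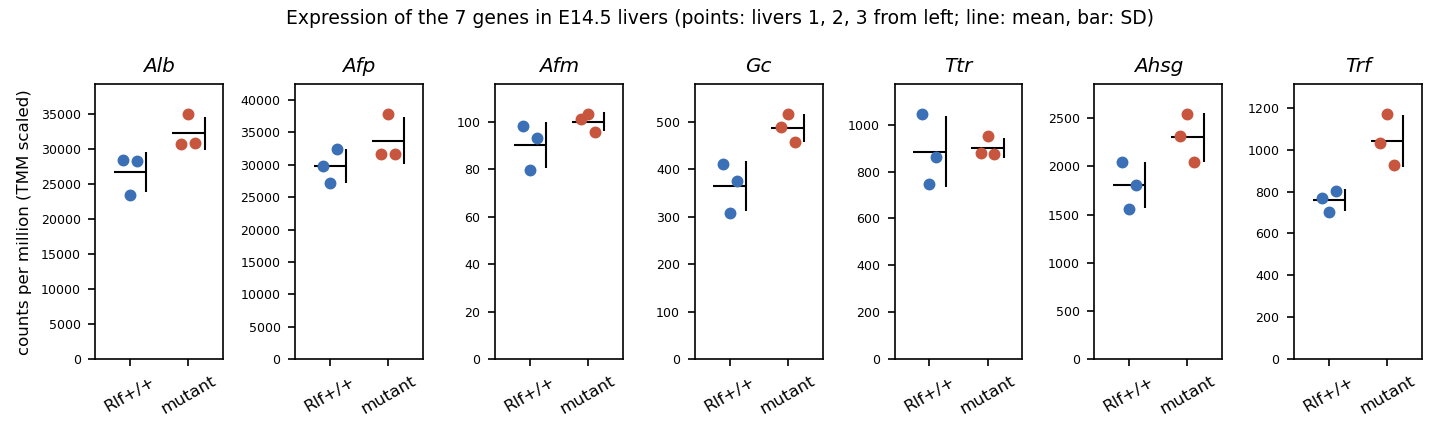
Expression of the 7 genes in 6 E14.5 livers, in TMM-scaled CPM on a linear axis from 0 for each gene. Points are livers 1, 2 and 3 from left to right, lines are means and bars the SD. For Trf, Gc and Alb every mutant liver lies above every wild-type liver, and Trf is the gene that passed the test (adjusted p = 0.0289, edgeR).

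The balance of Afp and Alb was followed as the ratio of their counts, which does not depend on scaling between libraries. It was 1.05, 1.16 and 1.15 in wild-type livers and 1.03, 1.08 and 1.03 in mutants. The groups overlapped. On the log2 scale the means were 0.16 and 0.07, a difference of -0.10, with an exact two-sided permutation p of 0.2, where 3 livers against 3 cannot go below 0.10. Without wild-type liver 1 the difference was -0.14.

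The mutated gene did not separate the genotypes in RNA. Rlf had 70.0, 72.3 and 68.9 CPM in wild-type livers and 76.3, 79.8 and 67.6 in mutants, with a log2 fold change of 0.08 (adjusted p = 0.646, edgeR). The groups overlapped, so this level does not check the labels.

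Among 30 other secreted plasma proteins that passed the filter on low counts, 1 rose and none fell, with a median log2 fold change of 0.04. This was Igfbp1, a binding protein for insulin-like growth factors, at 91.0, 151 and 135 CPM in wild-type livers and 413, 659 and 205 in mutants. Its log2 fold change was 1.76 (SE 0.316, adjusted p = 0.0185, edgeR), and no mutant liver fell into the wild-type range. The call was lost without wild-type liver 1 (0.0846), wild-type liver 3 (0.0588) or mutant liver 1 (0.0844). Serpina6 (log2 fold change 0.24, adjusted p = 0.116, edgeR) was called without the filter on low counts (0.0107) and with DESeq2 (0.0370).

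Of 15 transcription factors that act on Alb and Afp, 1 rose and none fell (median log2 fold change 0.11). Zbtb20, a zinc finger protein known as a repressor of Afp, was at 6.33, 6.21 and 5.96 CPM in wild-type livers and at 12.7, 9.88 and 9.69 in mutants, with a log2 fold change of 0.80 (SE 0.14, adjusted p = 0.0176, edgeR). This call too was lost without wild-type liver 1 (0.052), wild-type liver 3 (0.0642) or mutant liver 1 (0.0851). Hnf4a stood at 227, 257 and 239 in wild-type livers and 266, 272 and 251 in mutants, and its log2 fold change of 0.13 did not pass (adjusted p = 0.427, edgeR). None of 9 tested receptors and carriers of these proteins was called. The one with the lowest p, chosen with its values known, was Amn, a part of the cubilin receptor for proteins in kidney and gut, at 1.91, 1.65 and 1.05 CPM in wild-type livers and 0.543, 0.721 and 0.351 in mutants. The groups of Amn did not overlap, and its log2 fold change of -1.497 had an adjusted p of 0.0699 in edgeR's test, 0.0294 with the replicate block, 0.0431 with sex as a covariate and 0.0214 without the filter on low counts. The transferrin receptor Tfrc was at 1931, 1381 and 1672 CPM in wild-type livers and 1813, 1512 and 1746 in mutants (log2 fold change 0.03, adjusted p = 0.945, edgeR).

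Of 9 tested neighbours of the cluster on chromosome 5, 1 rose. It was Pf4, a chemokine of megakaryocytes and platelets, which went from 155, 153 and 146 CPM in wild-type livers to 186, 202 and 213 in mutants (log2 fold change 0.40, SE 0.068, adjusted p = 0.0143, edgeR). It was no longer called without wild-type liver 3 (0.0665) or mutant liver 3 (0.0652). Pf4 is also on the list of megakaryocyte markers below. Another neighbour, Slc4a4 (log2 fold change 0.42, adjusted p = 0.116, edgeR), was called only without the filter on low counts (0.0387).

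Markers of the cells of the fetal liver, and of yolk sac endoderm, were measured beside these genes. All 12 hepatoblast markers were detected and none was called. With the replicate block Epcam, an epithelial adhesion protein, was called (adjusted p = 0.0456, edgeR, against 0.0978 without it). It was also called without the filter on low counts (0.0176). The 12 markers summed to 2896 to 3071 CPM in wild-type livers and 3055 to 3299 in mutants, with Dlk1 the most abundant. Their median log2 fold change was 0.11. For 12 erythroid markers, led by Hbb-b1, none was called, none had a log2 fold change above 0 and the median was -0.16. Without wild-type liver 2, Hbb-b1, Hba-a1 and Hbb-b2 were called lower in mutants (log2 fold changes of -0.42, -0.46 and -0.39). Their sum ranged more widely in wild-type livers (31825 to 58866 CPM, lowest in liver 2) than in mutants (39267 to 43129). Megakaryocyte markers, led by Ppbp, summed to 491 to 515 in wild-type livers and 580 to 650 in mutants, and 1 of 6, Pf4, was called, joined by Itga2b with the replicate block (adjusted p = 0.0322, edgeR). Of 4 neutrophil markers, led by Mpo, Elane fell by 0.76 on the log2 scale (SE 0.168, adjusted p = 0.0493, edgeR), from 39.5, 46.1 and 34.3 CPM to 26.5, 28.2 and 16.2. That call was lost with DESeq2's size factors (0.0502), with DESeq2 (0.144) and without any 1 library other than mutant liver 2 (0.0566 to 0.13), while the replicate block gave 0.000329. No macrophage (8 tested, led by Csf1r), endothelial (7, Lyve1), mesenchymal (6, Col3a1) or yolk sac endoderm (6, Rbp4) marker was called. Yolk sac endoderm is not a cell type of the liver. Its list holds Ttr, which is among the 7 genes, and Rbp4, which is also on the list of other secreted plasma proteins. Amn, also on the yolk sac list, was called under the settings given above, Stab2 (endothelial) without the filter on low counts (adjusted p = 0.0372, edgeR), and Pdgfrb (mesenchymal) without that filter (0.0484) or without mutant liver 2 (0.0484). The part of these cell types in the values of the 7 genes was not tested.

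Methylation is given as the methylated share of reads, in percent, within 1 kb to either side of each start site (the TSS window), using CpGs that had 6 or more reads in each of the 12 libraries. A covered autosomal CpG had on average 17.2 to 19.4 reads in an E10.5 library, 32.2 to 36.1 in an E14.5 library and 17.78 to 18.47 in an E18.5 library. Autosomes were methylated at 70.6% to 73.9%, 56.4% to 60.3% and 61.4% to 65.5% in these tissues. Mutant E18.5 liver 1, at 65.5%, stood apart from the other 3 E18.5 livers (61.4% to 61.7%). In embryos both mutants (73.2% and 73.9%) were above both wild-type samples (70.6% and 72.0%). At E14.5 mutant livers were at 60.3% and 59.2%, above wild-type livers at 56.4% (liver 1) and 58.5% (liver 2). The TSS windows of the 7 genes held 6 covered CpGs in Alb and Afm, 7 in Ttr, 10 in Gc, 11 in Afp, 23 in Ahsg and 29 in Trf, against a median of 57 over all 19936 windows tested. Between 81 and 1183 reads lay behind each library's value.

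All 7 TSS windows were heavily methylated in E10.5 embryos and less so in E14.5 livers of both genotypes. In wild-type samples the drop ranged from 13.3 points at Afm to 43.4 points at Trf, and in mutants from 15.5 to 51.7 points at the same genes. Each of the 7 passed the test in each genotype, beside 58.4% of all windows in wild-type samples (41.9% lower) and 59.3% in mutants (44.3% lower). The median difference over all windows was -0.59 points in wild-type samples and -0.88 in mutants. In embryos 54.6% (wild-type) and 52.6% (mutant) of all windows were already under 10%, with little room to fall. Of all autosomal 10 kb bins, 94.2% and 94.7% were called lower at this step, so a drop was common to most of the genome. Between E14.5 and E18.5 liver, and between the genotypes, none of the 7 windows passed.

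Alb was at 88.8% and 78.4% in wild-type embryos and 90.6% and 89.0% in mutant embryos. In E14.5 liver it was at 59.9% and 62.3% in wild-type and 59.8% and 57.0% in mutant samples, and in E18.5 liver at 58.9% and 53.3% in wild-type and 65.8% and 52.5% in mutant samples. Every liver was below every embryo. The genotypes overlapped in E18.5 liver, while both mutant E14.5 livers lay below both wild-type ones, by as little as the gap from 59.8% to 59.9%. The difference from embryo to E14.5 liver was -22.5 points in wild-type samples (adjusted p = 0.000106, edgeR) and -31.4 points in mutants.

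Afp showed 87.4% and 86.6% in wild-type and 86.8% and 91.5% in mutant embryos. It then stood at 63.8% and 67.2% in wild-type and 65.3% and 66.6% in mutant E14.5 livers, and at 69.9% and 69.7% in wild-type and 70.4% and 70.8% in mutant E18.5 livers. The 4 E18.5 livers were all above the 4 E14.5 livers, yet the differences of 4.27 points (wild-type) and 4.59 points (mutant) did not pass (adjusted p = 0.505 and 0.420, edgeR) and turned negative in a window of 2 kb to either side (-3.31 and -2.25 points). The drop from embryo to E14.5 liver was 21.5 points in wild-type samples (adjusted p = 3.2e-07, edgeR).

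Afm was at 87.3% and 83.0% in wild-type and 86.0% and 85.8% in mutant embryos, and at 64.04% and 79.6% in wild-type and 73.2% and 67.6% in mutant E14.5 livers. These E14.5 livers spread over more than 15 points, on 6 CpGs. The wild-type difference of -13.3 points (adjusted p = 0.00463, edgeR) was no longer called without E10.5 wild-type sample 1 (0.0921), without E14.5 wild-type liver 1 (-5.52 points, 0.296) or in a window of 500 bases to either side (-7.60 points, 0.174), and was -21.1 points without E14.5 wild-type liver 2. In E18.5 liver Afm was at 67.7% and 67.6% in wild-type and 55.6% and 56.8% in mutant samples. Both mutants were below both wild-type livers, but the difference of -11.5 points did not pass (adjusted p = 0.524, edgeR) and was 5.95 points in the opposite direction in a window of 2 kb to either side.

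Gc measured 80.1% and 82.0% in wild-type and 83.9% and 77.0% in mutant embryos. E14.5 livers were at 54.2% and 51.2% (wild-type) and 57.4% and 52.8% (mutant), and E18.5 livers at 56.8% and 52.8% (wild-type) and 58.6% and 58.9% (mutant). All livers were below all embryos. The difference from embryo to E14.5 liver was -28.3 points in wild-type samples (adjusted p = 9.3e-08, edgeR) and -25.3 points in mutants.

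Ttr had 84.2% and 78.9% in wild-type and 82.8% and 81.1% in mutant embryos, and 50.9%, 52.2%, 52.9% and 51.2% in the wild-type and then the mutant E14.5 livers. At E18.5 it had 53.6% and 52.0% in wild-type livers and 62.6% and 46.8% in mutants, the higher value being that of the mutant liver that stood apart over all autosomes. The difference from embryo to E14.5 liver was -29.99 points in wild-type and -29.93 points in mutant samples.

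For Ahsg the embryos were at 86.1% and 84.9% (wild-type) and 86.6% and 85.5% (mutant). The E14.5 livers were at 56.1% and 56.4% (wild-type) and 57.6% and 55.0% (mutant), and the E18.5 livers at 52.1% and 53.1% (wild-type) and 56.8% and 52.4% (mutant). Samples of one tissue lay within 5 points of each other. The drop from embryo to E14.5 liver was 29.2 points in wild-type samples (adjusted p = 1.1e-11, edgeR) and 29.7 points in mutants.

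Trf was the exception in level. It was at 66.0% and 76.0% in wild-type and 78.1% and 78.3% in mutant embryos, at 28.9% and 26.4% in wild-type and 27.3% and 25.7% in mutant E14.5 livers, and at 19.7% and 19.4% in wild-type and 21.4% and 14.8% in mutant E18.5 livers. Every E18.5 liver was below every E14.5 liver, and these were far below the embryos. The difference from embryo to E14.5 liver was -43.4 points in wild-type samples (adjusted p = 9.5e-13, edgeR) and -51.7 points in mutants (7.0e-15), and 0.742% and 0.296% of all windows had a more negative one. From E14.5 to E18.5 liver the difference was -8.12 points in wild-type samples (adjusted p = 0.0917, edgeR) and -8.39 points in mutants (0.0565), where 2.58% and 6.55% of all windows were called. The mutant difference was called without mutant E18.5 liver 1 (adjusted p = 0.0367, edgeR) or either wild-type embryo (0.0459 and 0.0458). Without mutant E18.5 liver 2, the lowest liver at 14.8%, the mutant difference was smaller. In a window of 2 kb to either side the differences from E14.5 to E18.5 liver were 0.41 points in wild-type samples, of opposite sign, and -1.22 points in mutants.

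**Figure D2:**
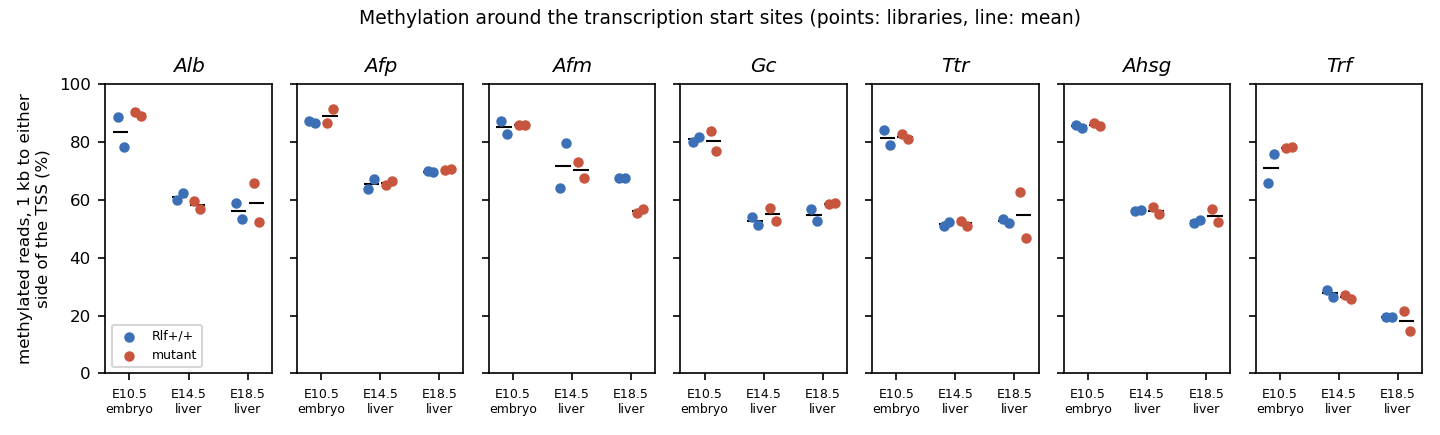
Percent of methylated reads within 1 kb to either side of the start site of each gene, from 0 to 100, by stage (embryos at E10.5, then livers). Points are the 12 libraries, lines the means of 2. All livers lie below all embryos for each of the 7 genes, and Trf reaches the lowest levels, 14.8% to 28.9% in liver.

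The CpGs around the Trf start were examined one by one. Of its 29 covered CpGs, the 20 from -440 to +240 bases, 3 of them at -440, -349 and -327 and 17 from -16 on with none covered between, where most CpGs of the Trf sequence printed above lie, had a median of 68.8% in wild-type and 78.2% in mutant embryos. In E14.5 liver the median of the block was 9.55% (wild-type) and 9.13% (mutant), and in E18.5 liver 3.49% and 3.45%. The other 9 CpGs of the window had medians of 83.0% and 85.1% in embryos, 53.0% and 63.0% in E14.5 liver and 51.4% and 38.6% in E18.5 liver. No CpG of the window was under 10% in embryos of either genotype, whereas 12 (wild-type) and 10 (mutant) were in E14.5 liver and 15 and 17 in E18.5 liver. As few as 6 reads lay behind a library's value at a CpG, and the E14.5 libraries were deeper than the others. The part of depth in these counts was not tested. The bounds of this block were drawn after the values were seen, so these are descriptions without a test.

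**Figure D3:**
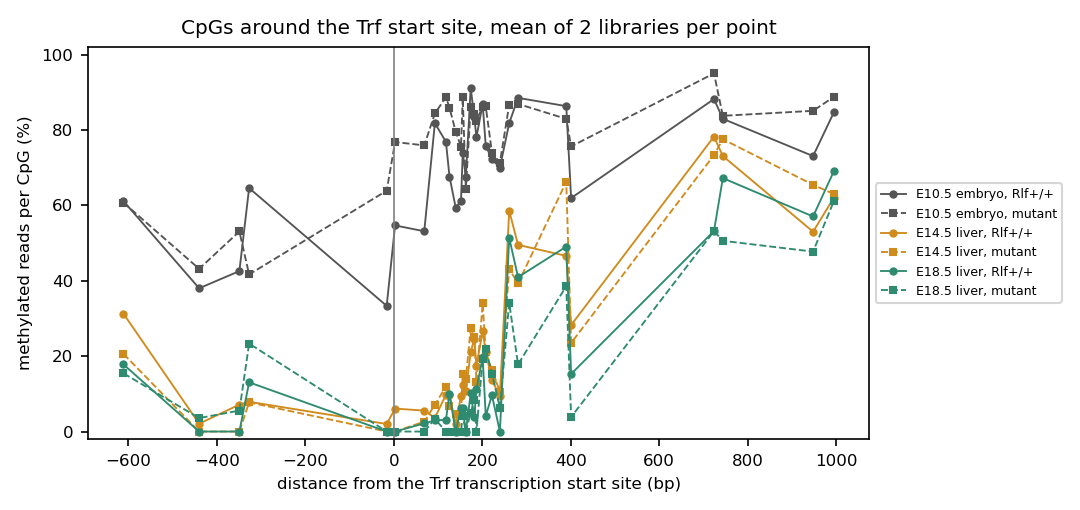
Percent of methylated reads at each of the 29 covered CpGs around the Trf start site, by distance in bases, as the mean of 2 libraries for each tissue and genotype. Between -440 and +240 bases the liver lines run low (medians 3.45% to 9.55%, up to 34.0%), while the embryo lines vary from 33.3% to 91.2% (medians 68.8% and 78.2%).

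None of the other 6 genes had a CpG under 10% in any tissue. The CpG of Gc at -33 bases from the start, the first CpG capitalised in its sequence, was at 21.7% in wild-type and 29.2% in mutant E14.5 livers, against 60.5% and 65.0% in embryos. In E18.5 livers it was at 26.8% and 53.2%, and as few as 11 reads lay behind a library's value. In Ahsg the CpGs at -715 and -315 bases were at 26.0% and 29.9% in wild-type E14.5 livers. Alb was lowest at 400 bases after the start (42.1% in wild-type E14.5 livers) and Afp at 323 bases after it (51.6%). The single CpG in the 300 bases before Afp, at -75, was at 52.3%. Each of these values is the mean of 2 libraries.

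High expression and methylated start sites stood side by side at several of these genes. Of the 200 most abundant genes of wild-type E14.5 liver, 155 had a TSS window, with a median methylation of 3.10%, and 27 of these windows were at 50% or more. Afp, Alb, Ahsg, Ttr and Gc were 5 of the 27, and Trf, also among the 200, was not. Over all 19936 windows the median in wild-type E14.5 liver was 7.41%, and 75.2% of them were lower than that of Ttr, at 51.6%. The start taken was the outermost annotated base of each gene, which need not be the start in use. RNA and methylation both came from bulk liver, in which the paper gives more erythroblasts than hepatoblasts at E14.5. Methylation in the cells that express these genes was not measured apart.

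None of the 7 TSS windows passed the test between genotypes, in any tissue or in the mean of the 3 tissues. Over all windows 2.21% were called in E10.5 embryos, 1.23% in E14.5 liver, 0.793% in E18.5 liver and 7.92% in the mean. In E14.5 liver, where RNA was measured, the 7 differences ran from -2.70 points (Alb) to 2.38 points (Gc), and that of Trf was -1.15 points (adjusted p = 0.939, edgeR). In embryos Trf and Alb were higher in mutants by 7.18 and 6.17 points (adjusted p = 0.263 and 0.400, edgeR), with wild-type samples that lay 10 points apart at both genes. A test of whether the genotype difference changed between stages (an interaction term in edgeR) was passed by none of the 7 genes (lowest adjusted p 0.999). It called 0% of the 19936 windows at either step. An unadjusted p under 0.05 was found for 948 windows (E14.5 against E10.5) and 719 windows (E18.5 against E14.5). Both numbers are below 5% of the windows, the share expected with no difference.

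Upstream of the genes, from 11 kb to 1 kb before the start, and in their bodies, all 7 were again lower in E14.5 liver than in embryos in both genotypes. So were most genes, since 89.3% (wild-type) and 90.3% (mutant) of upstream windows and 90.2% and 91.4% of bodies were called lower. From E14.5 to E18.5 liver few of the 7 were called, with no test of their share against that of all genes. Upstream, Ttr alone rose in wild-type livers (5.89 points, adjusted p = 0.0427, edgeR), where 46.2% of all windows were called higher, and Alb, Gc and Ttr rose in mutants (5.50, 9.21 and 6.79 points), where 56.9% were. Without mutant E18.5 liver 1, the one that stood apart over all autosomes, these were 3.01, 5.80 and 3.77 points and none was called (adjusted p = 0.392, 0.194 and 0.264, edgeR). All 3 calls were also lost without mutant E14.5 liver 1, those of Alb and Ttr without mutant E14.5 liver 2, and that of Ttr in wild-type livers without wild-type E14.5 liver 1 (0.324) or either wild-type E18.5 liver (0.139 and 0.184). The calls of Alb in mutants and Ttr in wild-type livers, both just past the threshold, were lost without most single libraries, embryos included. In the body, Afm alone rose, by 6.75 points in wild-type and 5.56 points in mutant livers, where 46.8% and 59.2% of bodies were called higher. The wild-type call was lost without wild-type E14.5 liver 1 (0.157) or either E18.5 liver (0.0694 and 0.0592), and the mutant call without either E14.5 liver (0.0974 and 0.0553) or E18.5 liver 1 (0.122). Between genotypes, the body of Ahsg was 3.39 points higher in mutants in the mean of the 3 tissues (adjusted p = 0.0163, edgeR), a contrast in which 16.2% of all bodies were called. The call was lost (adjusted p = 0.0673 to 0.125) without E10.5 wild-type sample 2, E10.5 mutant 2, E14.5 wild-type liver 1, E14.5 mutant liver 1 or E18.5 wild-type liver 2. No other body or upstream window of the 7 genes was called between genotypes, and the body of Alb, at 3.23 points, did not pass (0.0644). Of all bodies 2.95%, 1.16% and 0.926% were called in E10.5 embryos, E14.5 liver and E18.5 liver, and of all upstream windows 1.91%, 0.569% and 0.664%, with 13.6% in the mean.

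Across the 3 adjacent genes and their flanks, methylation was read in 15 bins of 10 kb, from chr5:90860001 to 91010000 (mm9). Levels of the bins spanned 76.4% to 89.7% in embryos. The span was 50.1% to 72.0% in liver at E14.5, and at E18.5 it was 52.0% to 79.5%. All 15 were called lower in E14.5 liver than in embryos in both genotypes, as were 94.2% and 94.7% of all bins. From E14.5 to E18.5 liver most of the genome gained methylation, with 58.6% of bins called higher in wild-type and 63.6% in mutant livers and median differences of 6.19 and 6.26 points. Of the 15 bins, flanks included, 7 (wild-type) and 4 (mutant) were called higher. Those at 90860001, 90870001 and 91000001 (wild-type) and at 90860001 and 91000001 (mutant) lie outside the 3 genes. The counts that follow are again over all 15 bins. The share of all bins called under the same settings is not given, so these counts show only how the calls depend on processing. In wild-type samples none was called without wild-type E14.5 liver 1, 1 without either wild-type E18.5 liver, 4 without either wild-type embryo or either mutant E14.5 liver, and 3 under the replicate block or at 10 or more reads. In mutants none was called without E14.5 liver 2 or E18.5 liver 1, and 6 without E18.5 liver 2.

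The bin that holds the first bases of Alb, at 90880001, gained 5.02 points in wild-type livers (adjusted p = 0.0804, edgeR) and 5.78 points in mutants, where it was called (0.0386). None of the next 5 bins, which run to the end of Afp, was called in either genotype. They begin at positions 90890001, 90900001, 90910001, 90920001 and 90930001 of chromosome 5. Their differences from E14.5 to E18.5 liver were -1.999, -0.80, -2.69, -0.59 and -0.03 points in wild-type and 2.30, 0.11, 0.73, -3.30 and 1.496 points in mutant livers. At 90900001, 90920001 and 90930001 both wild-type E18.5 livers lay between the wild-type E14.5 livers. The sign there depends on which of the E14.5 livers is taken. In wild-type livers 0.856% to 4.67% of all bins, and in mutants 1.23% to 11.7%, had a lower difference. Of the 5 bins that hold Afm, the first, at 90940001, differed by 2.38 points in wild-type livers and was not called. The next 4, from 90950001 to 90980001, gained 7.06, 7.46, 6.25 and 5.06 points there and were called (adjusted p = 0.0163, 0.0456, 0.0104 and 0.0491, edgeR). In mutants the 5 bins differed by 4.96, 5.13, 6.73, 6.23 and 2.92 points, and the one at 90970001 was called. These 5 bins of Alb and Afp were singled out with their values known, and their difference from the bins of Afm was not tested.

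**Figure D4:**
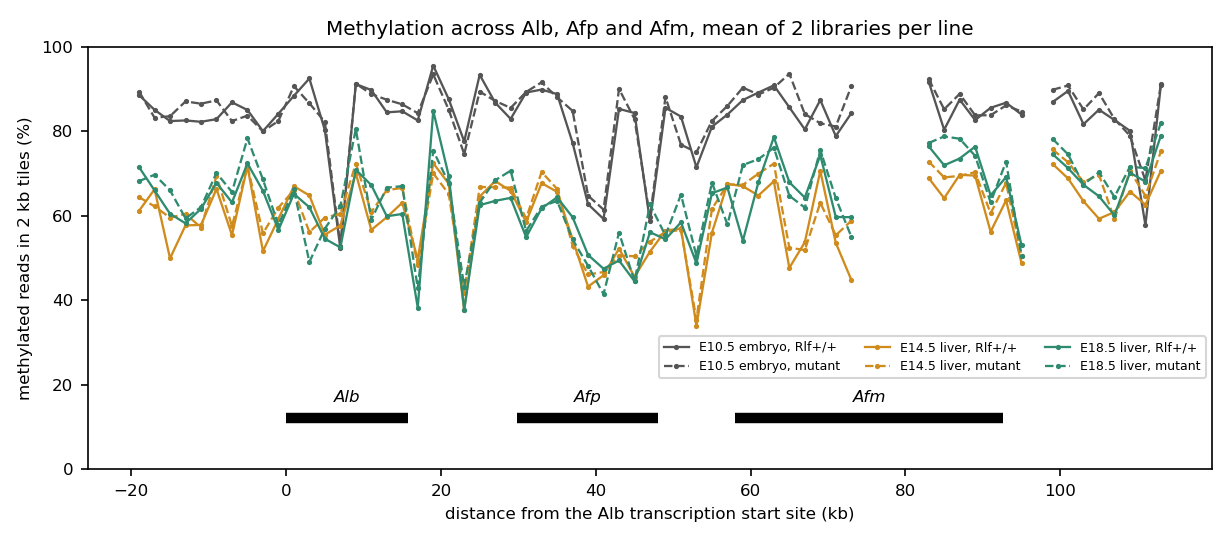
Percent of methylated reads in 2 kb tiles along Alb, Afp and Afm, by distance from the Alb start in kb, as the mean of 2 libraries per line. Solid lines are wild-type, dashed lines mutant, and black bars the genes. The solid E14.5 liver line dips to 37.6% at 22 to 24 kb, between Alb and Afp, and to 34.0% at 52 to 54 kb, between Afp and Afm.

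Dips within the cluster were sought in 2 kb steps, of which 60 tiles held 3 or more covered CpGs. In wild-type E14.5 liver the lowest lay 52 to 54 kb after the Alb start, 6 to 4 kb before Afm, at 34.0% against 71.5% in embryos and 48.8% in E18.5 liver. The next lay 22 to 24 kb after the Alb start, in the gap between Alb and Afp, at 37.6% in E14.5 and 37.8% in E18.5 liver against 77.6% in embryos. Both tiles rest on 3 CpGs. A tile of 16 CpGs inside Afp, 38 to 40 kb after the Alb start, followed at 43.2% against 62.8% in embryos. Next came a tile of 3 CpGs inside Afm, 72 to 74 kb after the Alb start, at 44.9%, where mutant E14.5 livers were at 55.3% and 62.3%, both above the wild-type livers at 46.9% and 42.9%. In E18.5 liver the order of the means was the opposite, with overlap, at 61.5% and 48.6% in mutant and 65.8% and 53.6% in wild-type samples. A tile of 14 CpGs inside Afp, 44 to 46 kb after the Alb start, was at 45.6% against 84.4% in embryos. The tile from 16 to 18 kb after the Alb start, just past the end of Alb, was at 49.7% in E14.5 and 38.2% in E18.5 wild-type liver, and at 48.3% and 42.8% in mutants. These tile values were not tested. In E14.5 liver mutants were at 35.4%, 41.8%, 46.1%, 58.8%, 50.4% and 48.3% for these 6 tiles.

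Taken as a whole, the cluster from the Alb start to the Afm end (459 covered CpGs) was at 83.4% and 83.4% in wild-type and 84.1% and 85.0% in mutant embryos. In E14.5 liver it was at 58.1% and 62.0% in wild-type and 62.4% and 61.7% in mutant samples, and in E18.5 liver at 61.9% and 61.8% in wild-type and 64.8% and 62.6% in mutant samples. Mutants were higher without overlap in embryos and E18.5 livers. The differences of 1.19, 1.98 and 1.87 points had exact two-sided permutation p-values of 0.333, 0.667 and 0.333 within each tissue, where 2 against 2 cannot go below 0.333. Single libraries moved these values. The E14.5 difference was 0.027 points without wild-type liver 1 and 3.93 points without wild-type liver 2, the E18.5 difference 0.771 points without mutant liver 1 and 2.97 points without mutant liver 2, and the E10.5 difference 0.738 points without mutant embryo 2. Over the 3 tissues, with genotype permuted within tissue, the mean difference was 1.68 points (exact p = 0.0185, where the smallest possible is 0.00926). As a mean of CpG percents it was 1.22 points (exact p = 0.0926), and under the replicate block the exact p was 0.0625. The median mean difference over all 10 kb bins of the genome was 1.74 points. The mean difference was 1.31 points without mutant E18.5 liver 1 (exact p = 0.0278) and 1.03 points without wild-type E14.5 liver 1 (exact p = 0.0278). It lost the threshold without either E14.5 mutant (exact p = 0.120 and 0.111) or either E18.5 wild-type liver (exact p = 0.0648 and 0.0833). No 10 kb bin of the cluster was called between genotypes in any tissue or in the mean, beside 1.08%, 0.192%, 0.284% and 9.34% of all bins.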

How the data were processed

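Processed files of 12 whole-genome bisulphite libraries and 6 RNA-seq libraries were used. H3K4me1 ChIP-seq was not analysed here. The authors mapped bisulphite reads with Bismark and Bowtie2 to mm9 carrying FVB substitutions, with lambda and transgene sequences added, removed PCR duplicates and merged the strands. They deposited counts of methylated and unmethylated reads per CpG and a percent rounded to whole numbers, which was not used here. For RNA the authors deposited raw counts per Ensembl gene (TopHat, then htseq-count without strand, where reads on overlapping genes are not counted), with no normalization.

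Here genes were tested with edgeR 4.0.16 (TMM, default filter, genotype only) and DESeq2 1.42.0 as the other tool, in R 4.3.3. Methylated and unmethylated counts summed per window or bin were tested with edgeR over all 12 libraries, with 1 intercept per library and 1 term per tissue and genotype. Windows needed 3 covered CpGs and bins 8. Calls are at a Benjamini-Hochberg adjusted p under 0.05 over all features of a comparison. Both fits were tested on simulated data. The Afp to Alb ratio and the methylation of the whole cluster were tested by permuting samples (exact, two-sided). RPKM here is the CPM (TMM-scaled) divided by the union exon length in kb. Sequences were read with samtools 1.23.1.

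The members, gene lists and tests were chosen with earlier results of these data known. All 7 genes are named in the RNA comparison and in the window tests. Of each gene list the text names called genes without overlap between groups, up to 4 per direction, and the most abundant marker. For each gene the 3 most correlated genes in RNA are named, among those with a mean of at least 10 CPM, and for Alb and Afp the 3 most correlated methylation windows with at least 5 CpGs. Individual CpGs, tiles, bins, Hnf4a and Tfrc were chosen with their values known. For RNA, deviations from the group mean correlated between the wild-type and mutant sample of each number (r = 0.123, 0.238 and 0.420 over 14183 genes), so the blocked fit is printed beside any call it changes. Replicate 3 is the female in each genotype. The labels give no other pairing of wild-type with mutant livers. For all 7 genes wild-type liver 2 lay below its group mean and mutant liver 2 above its own, so these livers deviated in opposite directions there. No 2 RNA libraries agreed within sampling noise. The study calls the samples of a group biological replicates. Alternatives covered coverage, window size, thinning, normalization, tool, filter, sex, block, each tissue fitted alone and leaving out each library. A transcription factor and the results that need it are not reported here.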

Additional observations from a re-analysis of the deposited data

How the results depend on the processing

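Without a filter on low counts 532 genes were called (317 higher, 215 lower in mutants) and 4 of the 7 members, Trf, Gc, Ahsg and Alb. With the replicate block, 460 genes (263 higher, 197 lower) and 2 members were called. DESeq2 called 273 genes (154 higher, 119 lower) and 3 members (Trf, Gc and Ahsg). Leaving out 1 library at a time gave 66 to 224 genes (27 to 97 higher, 39 to 127 lower) and 0 to 1 members, the one without wild-type liver 1 being Gc. No call among the 7 genes changed with sex as a covariate or with DESeq2's size factors in edgeR. The cause of these changes was not tested. The counts of members were not set against the share of all genes called under each setting.

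The mean genotype difference of the whole cluster was 1.68 points with an exact p of 0.0625 under the replicate block, and 1.22 points with an exact p of 0.0926 as a mean of CpG percents. Leaving out single libraries gave 1.03 to 2.33 points. For bisulphite samples the number marks sex at E14.5 and nothing known at the other stages, and same-numbered samples did not deviate together (r = 0.0606, 0.0140 and -0.0112 over 230025 bins). With a block there, 3 of the 15 bins across the cluster and its flanks were called between wild-type livers. So were 2 gene bodies, and no call at a TSS window changed. The share of all bins and of all bodies called with the block is not given here.

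TSS windows of the 7 genes called from E14.5 to E18.5 liver numbered 1 with at least 1 read (both genotypes), and 1 in mutants with at least 10 reads or 500 bp to either side, each time Trf. From embryo to E14.5 liver 5 to 7 windows were called in wild-type samples and 6 to 7 in mutants; Ttr had too few CpGs at 500 bp to be tested. With at least 1 read 2 upstream windows were called between wild-type livers. With at least 10 reads 2 gene bodies and 1 bin were called in the mean genotype contrast, and 3 bins between wild-type livers. Leaving out single libraries, members called ranged from 0 to 1 (TSS, E18.5 against E14.5 in mutants), 0 to 2 and 0 to 4 (upstream, wild-type and mutant), 0 to 2 and 0 to 4 (bodies), and 0 to 8 and 0 to 6 (bins). For genotype they ranged from 0 to 2 (upstream, E18.5), 0 to 3 (upstream, mean) and 0 to 1 (bodies, E10.5). The other ranges were 0 to 3 (bodies, mean), 0 to 1 (bins, E18.5) and 0 to 3 (bins, mean). The share of all features called also moves with the setting. It is not given here for each, so these counts show only how calls of the members depend on processing.

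Over the whole table, TSS windows called from E14.5 to E18.5 liver numbered 515 in wild-type samples (33 to 1075 without single libraries, 154 to 1174 under other settings) and 1305 in mutants (93 to 1503 and 292 to 3268). Between genotypes they numbered 441 in embryos (84 to 568 and 248 to 627), 245 in E14.5 liver (49 to 330 and 163 to 731), 158 in E18.5 liver (56 to 200 and 91 to 219) and 1578 in the mean (977 to 2150 and 947 to 2093).

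Small E18.5 minus E14.5 differences at TSS windows changed sign. With at least 1 read these were Alb (2.74 points in wild-type, -2.65 in mutants) and Gc (-0.72). With at least 10 reads it was Ttr (-0.52). At 500 bp they were Afp (-1.48, mutants), Gc (-0.30) and Ahsg (0.96, mutants), and at 2 kb Alb (-0.862, mutants), Afp (-3.31 and -2.25), Ttr (-2.92), Trf (0.41, wild-type) and, between genotypes at E18.5, Afm (5.95). Without single libraries the differences ranged from -5.92 to 7.39 (Alb, mutants), -5.22 to 10.6 (Ttr, mutants), -3.88 to 0.45 (Ahsg, mutants) and -11.9 to 3.64 (Afm, wild-type), and the log2 fold change of Ttr from -0.084 to 0.16. Windows of 6 or 7 CpGs with 81 to 436 reads limit Alb, Afm and Ttr, and groups of 2 libraries limit every methylation comparison.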

Other observations

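Over the 6 E14.5 livers, log2 CPM of the 7 genes moved together to different degrees. Pearson's r of the 21 pairs ran from 0.342 (Ttr and Trf) to 0.974 (Gc and Ahsg), with a median of 0.870. The points share genotype, library scaling and a wild-type liver 2 that was lowest for all 7 genes, so r is given as a description.

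Among 9727 genes, those most like each member over the 6 livers were Zfp948 (r = 0.989), Hsd17b2 (0.986) and Rnf13 (0.984) for Alb, Tram1 (0.983), 2310045N01Rik (0.967) and Rabep1 (0.957) for Afp, and Gp9 (0.996), Tmem30b (0.994) and Rnf41 (0.989) for Gc. Afm was most like Serpina1d (0.987), Serpina1b (0.983) and Akr1c14 (0.977). The closest genes were Mff (0.995), Esco2 (0.992) and Gm6517 (0.988) for Ttr, Gdpd3 (0.991), Pld3 (0.986) and Cebpg (0.983) for Ahsg, and Sdr39u1 (0.989), Morc4 (0.988) and Plk2 (0.987) for Trf. These are the highest values of a search of 9727 genes over only 6 livers, so they too are descriptions.

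Over the 12 bisulphite libraries, whose points share tissue and depth, TSS methylation of Alb was most like that of Obox1 (r = 0.991), Pde4d (0.980) and Lmo3 (0.979), and that of Afp most like Lce1i (0.996), Cml2 (0.994) and Pkd1l3 (0.993). Of 19243 windows searched, 1979 had r of at least 0.9 with Alb and 4455 with Afp.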
